A study of Rattus norvegicus with 6 samples.

Results

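Integrins, cadherins and junction proteins were followed across 4 groups of rat fibroblast cultures, as 18 genes out of 2890 named genes on the array. A gene was included when its symbol began with the letters of an integrin alpha or beta chain, a cadherin or protocadherin, a claudin, a connexin, one of the adhesion molecules of the Icam, Vcam and Ncam families, a catenin or a zonula occludens protein. The 18 genes carried 24 of the 4818 tested probe sets, a probe set being the group of short oligonucleotides that reads out a transcript on an Affymetrix chip. Where a gene had several, the probe set with the highest mean over 6 arrays stood for it. Catenins and the Gjc connexins had no probe set that mapped to exactly 1 gene, and 2 probe sets shared by 13 gamma-protocadherin genes each were left out.

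The groups were FE8 cells given 0.3 µM 5-aza-2'-deoxycytidine for 96 h (treated FE8, n = 2), untreated FE8 (n = 1), 208F cells treated alike (treated 208F, n = 2) and untreated 208F (n = 1). 208F is an immortal, non-transformed rat fibroblast line, and FE8 is a single line of 208F cells transformed by the HRAS oncogene. The drug is a cytidine analogue that is built into DNA and traps DNA methyltransferases, so that methylation is lost as cells divide. The labels do not say whether duplicates came from separate cultures, so p-values measure no more than the scatter of these samples, and that scatter may be technical.

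Integrins are pairs of an alpha and a beta chain that bind matrix proteins outside the cell and couple them to actin inside it. Cadherins join neighbouring cells by binding each other, claudins and zonula occludens proteins build tight junctions, and connexins form the channels of gap junctions. Fibroblasts rely mainly on integrins and matrix, whereas epithelia also hold claudins, desmosomes and the hemidesmosomal integrin. RAS transformation of fibroblasts is known for rounded shape, loose attachment to matrix and altered cell contacts.

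Values were MAS5 signals on a linear scale, and differences were computed on log2(signal + 64), the 64 being the 10th percentile of tested signals. Signals near or below 64 therefore give log2 differences that are held down. Errors given as ± are standard errors from a limma fit of all 4 groups, which gave the untreated arrays the spread seen between treated duplicates, and a probe set was called at a Benjamini-Hochberg adjusted p under 0.05 over all 4818 probe sets. Median signals of the 6 arrays lay between 354 and 422. Of 15 fibroblast markers 11 were measured, with Vim between 7118 and 18849 on all arrays. Col1a1 lay between 100 and 271 in FE8 and between 6922 and 22282 in 208F. Of the 11, 4 (Col1a1, Col1a2, Col3a1 and Fn1) were called lower in FE8 both without and with the drug, and 7 were not called. Of all probe sets 2.82% were lower without and 3.65% with the drug. The 5' to 3' signal ratio of beta-actin, a sign of RNA quality, was 0.405 and 0.384 in treated FE8, 0.351 in untreated FE8, 0.529 and 0.456 in treated 208F and 0.824 in untreated 208F. That of GAPDH was 1.126 and 1.073 in treated FE8, 0.691 in untreated FE8, 1.132 and 1.01 in treated 208F and 0.916 in untreated 208F, higher on the treated arrays of both lines, and the part of RNA quality in the drug differences was not tested. Both untreated arrays were run in an earlier session and on another chip lot than the 4 treated arrays, so drug and session cannot be told apart. Among the treated arrays, 208F replicate 1 had its own lot and scan day. Values given below within 1 chip lot leave it out, and their errors then rest on the FE8 duplicates alone. A smaller p-value with an array left out is therefore no stronger evidence.

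Of the 18 genes, 5 were called in at least 1 of the 5 comparisons and 13 in none, beside 16.2% of all probe sets called in at least 1. Cdh17 and Itgb4 were higher in FE8 than in 208F both without and with the drug, Itga7 and Tjp1 were lower in treated FE8 than in treated 208F, Itgb4 rose with the drug in 208F, and Gja1 rose with the drug in FE8. The plot of signals by array shows these genes beside those that moved little, such as Itgb1.

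**Figure D1:**
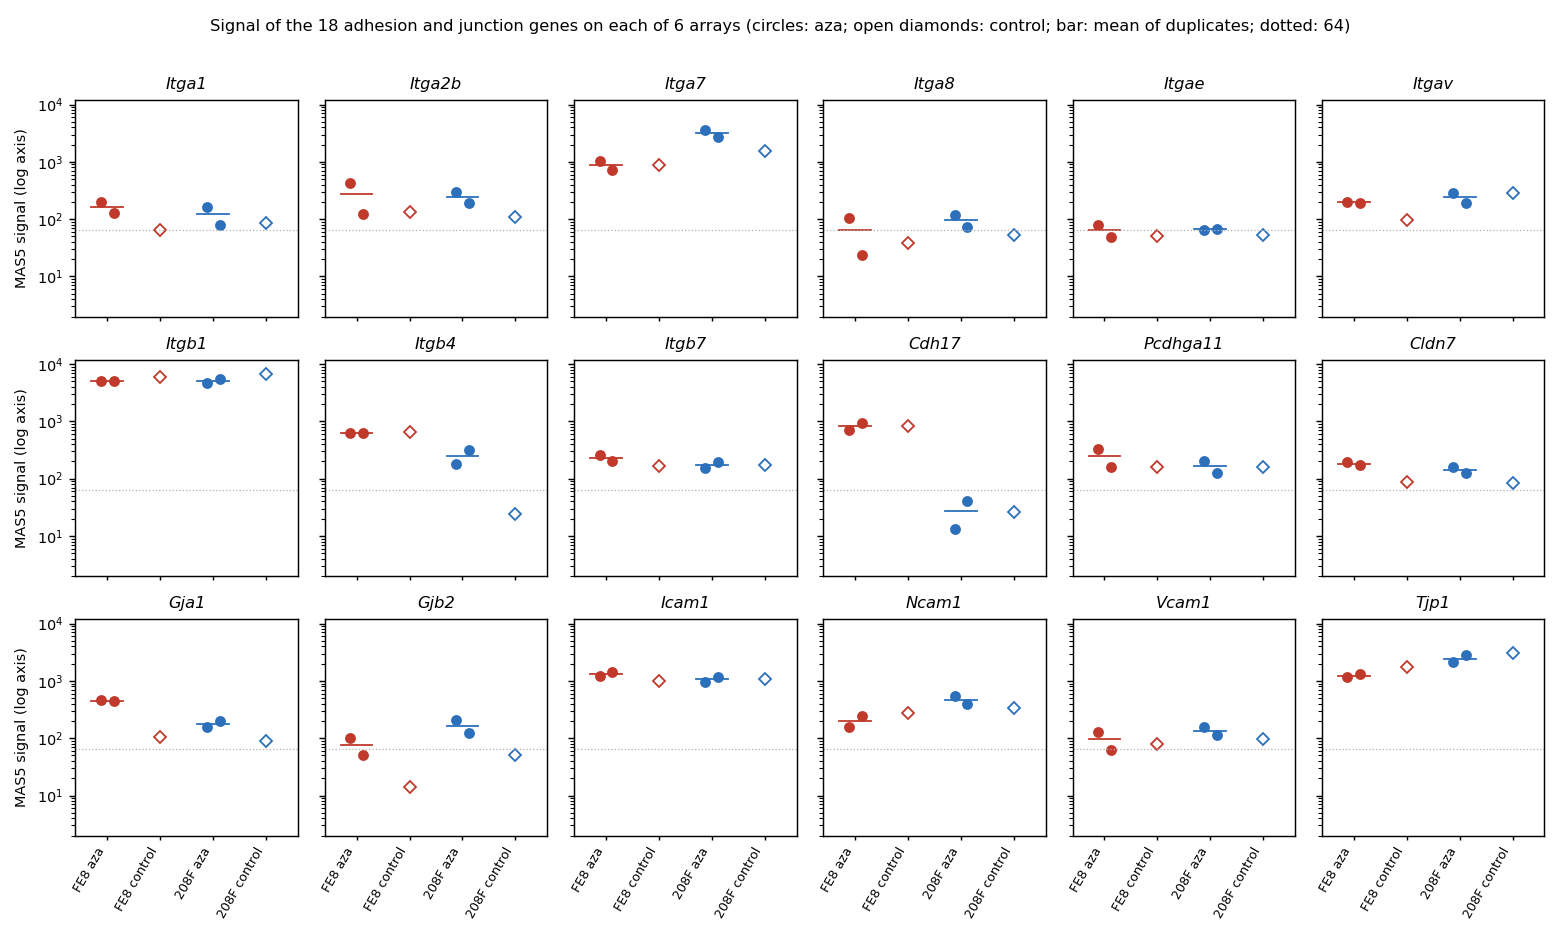
MAS5 signal (log axis) of each of the 18 genes in treated FE8 (FE8 aza), untreated FE8 (FE8 control), treated 208F (208F aza) and untreated 208F (208F control). Each point is 1 array, bars are means of duplicates and the dotted line marks 64. Cdh17 lies between 715 and 951 on all FE8 arrays and between 13 and 41 on all 208F arrays, and Itgb4 has its lowest point, 24, in untreated 208F.

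The first comparison set untreated FE8 against untreated 208F, 1 array each, to ask how the transformed line differed from its parent. Cdh17 and Itgb4 were higher and no gene was called lower. These were 2 of 18 genes (11.1%), beside 5.92% of all probe sets called, 3.09% higher and 2.82% lower. The median difference was -0.15 over the 18 genes and 0.02 over all probe sets. Of the 18, 5 lay above 0, beside 51.6% of all probe sets, and none of the 13 below 0 was called. Hras itself was not analysed here, and with 1 line of each kind, effects of the oncogene and of the line cannot be told apart. In bulk cultures, fewer cells of a type and less RNA per cell cannot be told apart either.

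Among the cadherins, Cdh17 was the gene measured. It encodes liver-intestine cadherin, a cell adhesion protein of gut epithelium that lacks the catenin-binding tail of classical cadherins. Its signal was 715 and 951 in treated FE8 and 838 in untreated FE8, against 13 and 41 in treated 208F and 26 in untreated 208F. The lines did not overlap, and every 208F value lay under 64. The difference was 3.33 ± 0.45 between untreated lines (adjusted p = 0.00116) and 3.31 ± 0.32 between treated lines (adjusted p = 6.28e-05). A second probe set gave 711 and 1008 in treated FE8 and 347 in untreated FE8, against 7 and 8 in treated 208F and 3 in untreated 208F. Its differences were 2.62 ± 0.45 (adjusted p = 0.00569) and 3.67 ± 0.32 (adjusted p = 2.93e-05), so both probe sets were called in both comparisons.

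Neither Cdh17 probe set was called between treated and untreated arrays in either line. In FE8 the used probe set differed by -0.02 ± 0.39 and the other by 1.15 ± 0.39 (adjusted p = 0.105), and in the other both treated arrays lay above the untreated one. In 208F the difference of the second probe set was 0.09 ± 0.39, from signals at the bottom of the range. Cdh17 was called between untreated and between treated lines under each of 11 alternative settings, none of which left out an untreated array.

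Among the integrin beta chains, Itgb4 stood apart from Itgb1 and Itgb7. Itgb4 pairs with the alpha 6 chain as a laminin receptor and anchors keratin filaments at hemidesmosomes. Its signal was 631 and 630 in treated FE8 and 661 in untreated FE8, against 182 and 321 in treated 208F and 24 in untreated 208F. All FE8 values were above all 208F values, the 3 FE8 arrays were close to each other, and the 208F arrays were spread widely. The difference was 3.04 ± 0.44 between untreated lines (adjusted p = 0.00183), and it ran from 1.71 to 4.08 over the alternative settings, the extremes coming from the pseudocount added to the signal of 24. Between treated lines it was 1.17 ± 0.31 (adjusted p = 0.0445), or 2.51 times in plain signal.

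In 208F Itgb4 was higher on treated than on untreated arrays by 1.81 ± 0.38 (adjusted p = 0.0193). In FE8 the difference was -0.06 ± 0.38 (adjusted p = 0.956). Drug and session cannot be told apart in either value. The difference between these drug effects, FE8 minus 208F, was -1.87 ± 0.54, with an unadjusted p of 0.00524 from limma that did not pass after adjustment (adjusted p = 0.243). The untreated line difference, the 208F drug effect and the difference between drug effects all rest on the same untreated 208F array, whose signal of 24 had no replicate. The untreated line difference was called under each of 11 alternative settings, none of which left that array out. The treated line difference was not called in 7 of 11, with adjusted p = 0.18 and a difference of 0.85 without 208F treated replicate 1, which is the value within 1 chip lot. It was 0.296 and 0.318 without FE8 treated replicates 1 and 2 and 0.0533 with the replicate number as a block (range 0.00353 to 0.318). The 208F drug effect was not called in 4 of 11, namely without FE8 treated replicates 1 and 2 (adjusted p = 0.102 and 0.103), with a larger pseudocount (0.0988) and after quantile normalization (0.0659, range 6.92e-05 to 0.103). Without 208F treated replicate 1, which left 1 treated 208F array, the difference between drug effects was -2.19.

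Itgb1, the shared partner chain of most matrix-binding integrins, had signals of 5126 and 5147 in treated FE8 and 5973 in untreated FE8, against 4767 and 5438 in treated 208F and 6636 in untreated 208F. The lines overlapped, and the differences were -0.15 ± 0.31 without and 0.01 ± 0.22 with the drug. All 4 treated arrays lay below both untreated arrays, at -0.22 ± 0.27 in FE8 and -0.38 ± 0.27 in 208F, and neither was called. Itgb7, a leukocyte integrin chain, averaged 230.5 in treated FE8 and was 165 in untreated FE8, against a mean of 174 in treated 208F and 176 in untreated 208F, with no call in any comparison. Its second probe set was higher on all treated arrays, with 133 and 186 in treated FE8 against 36 in untreated FE8, and 116 and 101 in treated 208F against 28 in untreated 208F. Those drug differences, 1.15 ± 0.39 and 0.91 ± 0.39, were not called (adjusted p = 0.106 and 0.257).

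The second comparison set treated FE8 (n = 2) against treated 208F (n = 2). Cdh17 and Itgb4 were higher, as given above, and Itga7 and Tjp1 were lower. That is 4 of 18 genes, beside 7.08% of all probe sets, with 2 higher beside 3.42% and 2 lower beside 3.65%. The median difference was 0.00 over the 18 genes and over all probe sets. The plot of line differences sets both line comparisons beside each other.

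**Figure D2:**
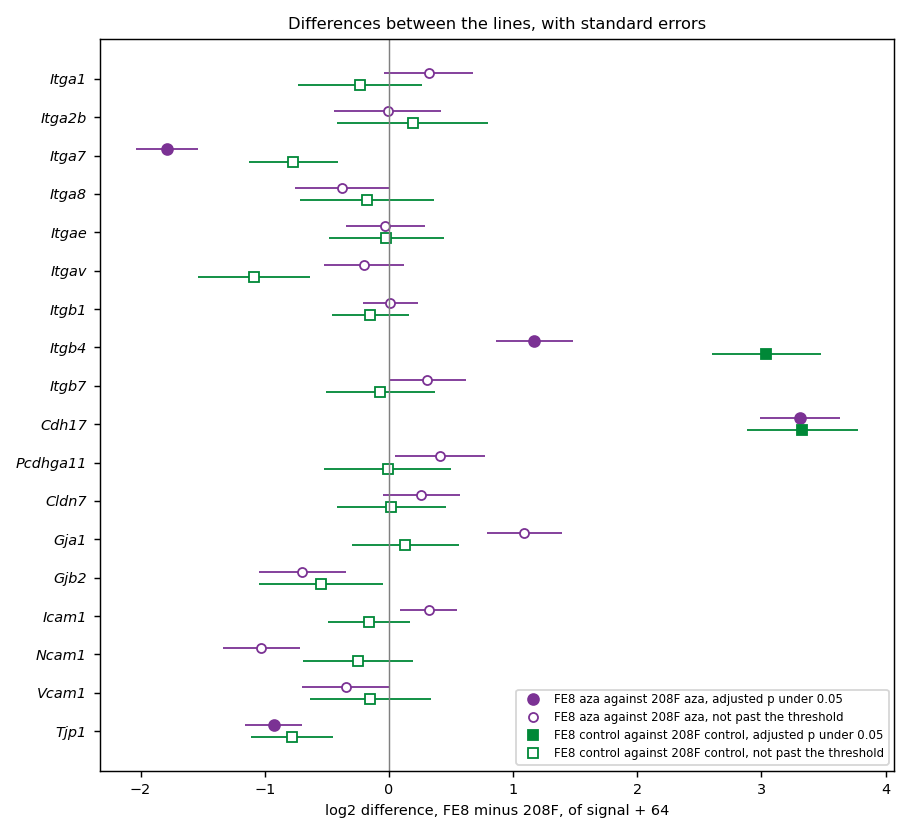
Log2 difference of FE8 minus 208F for each of the 18 genes, under the drug (aza, circles) and without it (control, squares), with standard errors. Filled symbols passed an adjusted p under 0.05. Cdh17 lies at 3.31 and 3.33, Itgb4 at 1.17 and 3.04, and Itga7 at -1.79 and -0.77.

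Among the integrin alpha chains, Itga7 was the gene that differed. It encodes the laminin-binding alpha chain of muscle, which pairs with the Itgb1 product. Its signal was 1028 and 727 in treated FE8 and 878 in untreated FE8, against 3649 and 2699 in treated 208F and 1546 in untreated 208F. Every FE8 array lay below every 208F array, and treated 208F was the highest group. The difference was -1.79 ± 0.25 between treated lines (adjusted p = 0.00102), a signal 3.62 times lower in FE8, and -0.77 ± 0.36 between untreated lines (adjusted p = 0.333).

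Both other Itga7 probe sets were also called lower in treated FE8. The first gave 331 and 294 in treated FE8 and 540 in untreated FE8, against 1094 and 983 in treated 208F and 794 in untreated 208F, a treated difference of -1.55 ± 0.25 (adjusted p = 0.00237). The second gave 77 and 78 in treated FE8 and 71 in untreated FE8, against 203 and 364 in treated 208F and 244 in untreated 208F, a treated difference of -1.26 ± 0.34 (adjusted p = 0.0486). Neither was called between untreated lines, at -0.51 ± 0.35 and -1.19 ± 0.48. The drug difference in 208F was 0.99 ± 0.31 for the used probe set (adjusted p = 0.104) but 0.36 ± 0.30 and 0.13 ± 0.41 for the others, so the probe sets agreed on the line difference and gave unequal sizes for the drug.

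The treated difference of Itga7 was not called without FE8 treated replicate 2 (-1.55). Within 1 chip lot, with 1 treated 208F array left, it was -1.57. The Itga7 drug difference in 208F was 1.21 without 208F treated replicate 2 and 0.78 without 208F treated replicate 1, each with 1 treated 208F array left. Of 8 muscle markers 5 were measured. In treated FE8 4 were called lower than in treated 208F (Acta2, Tagln, Myod1 and Acta1), beside 3.65% of all probe sets. In untreated FE8 3 were called lower than in untreated 208F (Acta2, Tagln and Myod1), beside 2.82%. Their summed signal was 563 and 660 in treated FE8, 167 in untreated FE8, 5300 and 5900 in treated 208F and 13758 in untreated 208F, most of the last from Acta2 (7043) and Tagln (6329), and none was at 0. With the drug in 208F the markers went different ways, as Acta2 (-2.48 ± 0.36) and Tagln (-1.58 ± 0.33) fell while Des (3.33 ± 0.54) and Myod1 (1.99 ± 0.35) rose. Their part in the Itga7 difference was not tested.

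The other 5 alpha chains were called in no comparison. Itgav, the chain of vitronectin and fibronectin receptors, was at 203 and 191 in treated FE8 and 98 in untreated FE8, against 289 and 190 in treated 208F and 282 in untreated 208F. Untreated FE8 was the lowest array, at a line difference of -1.09 ± 0.45 (adjusted p = 0.24), and treated lines overlapped, at -0.20 ± 0.32. Itga2b, the platelet fibrinogen receptor chain, had unlike duplicates, with 420 and 123 in treated FE8 and 136 in untreated FE8, against 294 and 191 in treated 208F and 111 in untreated 208F. Itga1, a collagen receptor chain, was at 198 and 130 in treated FE8 and 65 in untreated FE8, against 166 and 78 in treated 208F and 87 in untreated 208F, and the lines overlapped. Itga8, which binds nephronectin and fibronectin, and Itgae, the chain of intraepithelial lymphocytes, did not exceed 120 on any array. The 64 added to signals held down their log2 differences.

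Tjp1, the zonula occludens scaffold that links tight junction proteins to actin, was lower in FE8. Its signal was 1155 and 1328 in treated FE8 and 1750 in untreated FE8, against 2117 and 2778 in treated 208F and 3060 in untreated 208F. Every FE8 array lay below every 208F array, and within each line the untreated array was the highest. The difference was -0.93 ± 0.23 between treated lines (adjusted p = 0.0331) and -0.78 ± 0.33 between untreated lines (adjusted p = 0.252). The drug differences, -0.48 ± 0.28 in FE8 and -0.33 ± 0.28 in 208F, were not called. The treated call was lost without FE8 treated replicate 1 or 2 and without an intensity trend (adjusted p = 0.0932). Within 1 chip lot, with 1 treated 208F array left, the difference was -1.13.

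Ncam1, the neural cell adhesion molecule, also separated the lines without passing the test. Its signal was 155 and 243 in treated FE8 and 272 in untreated FE8, against 538 and 400 in treated 208F and 335 in untreated 208F. The treated difference was -1.03 ± 0.31 (adjusted p = 0.0801). Of 11 alternative settings it was called in 1 alone, without 208F treated replicate 2 (-1.22), which left 1 treated 208F array. Within 1 chip lot, again with 1 treated 208F array left, the Ncam1 difference was -0.84. With line as the sole grouping, 2 genes had all 3 FE8 arrays above all 3 208F arrays (Cdh17 and Itgb4), beside 8.55% of all probe sets. In the other direction 3 genes had all FE8 arrays below (Itga7, Ncam1 and Tjp1), beside 9.53% of all probe sets.

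Icam1, a leukocyte ligand that inflammatory signals induce, was at 1240 and 1452 in treated FE8 and 982 in untreated FE8, against 944 and 1189 in treated 208F and 1101 in untreated 208F. The lines overlapped, with 0.32 ± 0.23 between treated and -0.16 ± 0.33 between untreated lines, and its second probe set was called in no comparison either. Vcam1, a ligand of leukocyte integrins, ranged from 62 to 159 over all arrays and its other probe set from 3 to 66, with no call. Pcdhga11, a gamma-protocadherin whose transcripts share exons with others of its cluster, so that its reading is uncertain, was at 331 and 163 in treated FE8 and 160 in untreated FE8, against 205 and 125 in treated 208F and 162 in untreated 208F, again with no call. The plot of genes with several probe sets shows how far readings of the same gene agreed.

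**Figure D3:**
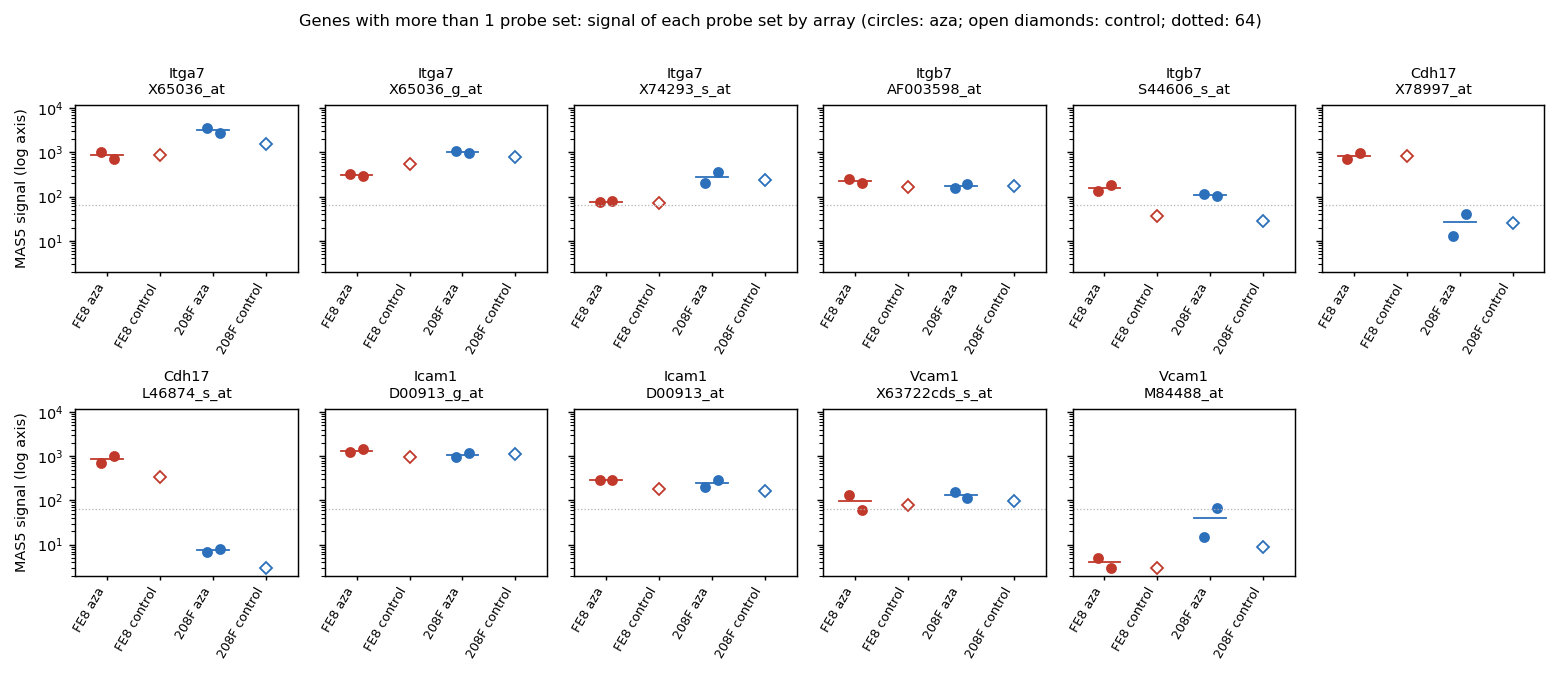
MAS5 signal (log axis) of every probe set of the 5 genes with more than 1, by group (aza, treated; control, untreated), with 1 point per array. Both Cdh17 and all 3 Itga7 probe sets separate the lines in the same direction, while the Itgb7 probe sets differ in how the untreated arrays lie.

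The remaining comparisons set treated against untreated arrays within a line, where drug and session cannot be told apart. In FE8 (treated n = 2, untreated n = 1) Gja1 rose and no gene fell, 1 of 18 genes beside 8.16% of all probe sets (5.06% higher and 3.09% lower). In 208F (treated n = 2, untreated n = 1) Itgb4 rose and no gene fell, 1 of 18 beside 5.19% of all probe sets (3.59% higher and 1.6% lower). The shares of genes called, 5.56% in either line, lay below or close to those backgrounds. The median drug difference was 0.30 over the 18 genes and 0.08 over all probe sets in FE8, and 0.29 and 0.11 in 208F. No gene was called for the difference between drug effects, beside 0.0623% of all probe sets (0.0208% higher and 0.0415% lower). By limma's unadjusted p 2 of the 18 (Itgb4 and Itga7) lay under 0.05. The share of all probe sets under that unadjusted threshold was not counted, so an excess among the 18 is not shown.

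**Figure D4:**
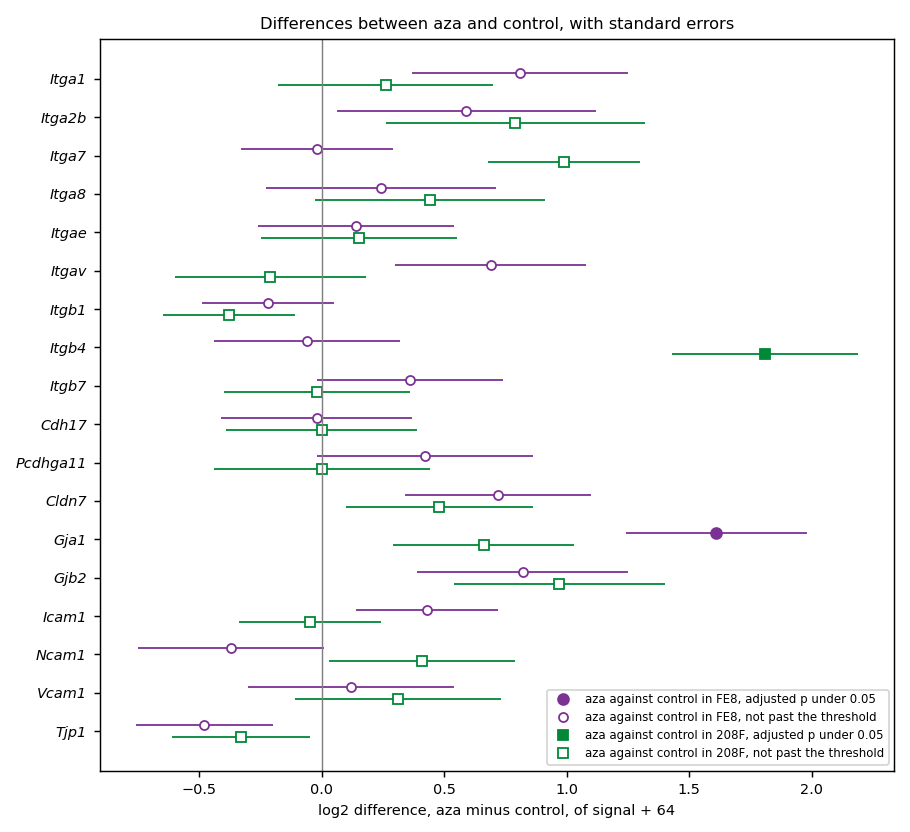
Log2 difference of treated (aza) minus untreated (control) for each of the 18 genes, in FE8 (circles) and in 208F (squares), with standard errors. Filled symbols passed an adjusted p under 0.05. Gja1 lies at 1.61 in FE8 and 0.66 in 208F, and Itgb4 at -0.06 in FE8 and 1.81 in 208F.

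Gja1 encodes the most widespread connexin, the main gap junction protein of fibroblasts. Its signal was 464 and 443 in treated FE8 against 105 in untreated FE8, and 157 and 203 in treated 208F against 90 in untreated 208F. Treated arrays lay above untreated ones in both lines, and treated FE8 was above all other groups. The drug difference was 1.61 ± 0.37 in FE8 (adjusted p = 0.0231), or 4.32 times in plain signal, and 0.66 ± 0.37 in 208F (adjusted p = 0.404). The difference between drug effects was 0.96 ± 0.52 and was not called (adjusted p = 0.808), so the response is not shown to differ between the lines. Between treated lines Gja1 was higher in FE8 by 1.09 ± 0.30, just outside the threshold (adjusted p = 0.0553).

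The FE8 call of Gja1 was lost after quantile normalization (adjusted p = 0.0521) and without FE8 treated replicates 1 and 2 (0.156 and 0.136, range over 10 settings 0.00206 to 0.156). Between treated lines Gja1 was called in 4 of 10 settings, among them without 208F treated replicate 2 (1.23). Within 1 chip lot, with 1 treated 208F array left, the Gja1 difference was 0.95. Its probe set has a suffix that marks possible sharing between transcripts, and no other Gja1 probe set was analysed here.

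Gjb2, a connexin of epithelia and the inner ear, was at 101 and 51 in treated FE8 against 14 in untreated FE8, and at 205 and 121 in treated 208F against 50 in untreated 208F. Cldn7, a claudin of epithelial tight junctions, was at 196 and 170 in treated FE8 against 86 in untreated FE8, and at 157 and 128 in treated 208F against 84 in untreated 208F. In both genes every treated array exceeded both untreated arrays. The drug differences of Gjb2 were 0.82 ± 0.43 in FE8 and 0.97 ± 0.43 in 208F, those of Cldn7 were 0.72 ± 0.38 and 0.48 ± 0.38, and none was called. In all, 3 genes (Gja1, Gjb2 and Cldn7) had all 4 treated arrays above both untreated arrays, beside 18.6% of all probe sets, and 1 (Itgb1) had them below, beside 12.5%.

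Epithelial markers moved with the treated arrays as well. Of 8 such markers 4 were measured, namely Krt8, Krt18, Cd24 and Epcam. With the drug 4 were called higher in FE8, beside 5.06% of all probe sets, and 3 in 208F, beside 3.59%. Their summed signal was 5660 and 6163 in treated FE8, against 213 in untreated FE8, and 4420 and 3996 in treated 208F, against 178 in untreated 208F, with none at 0. Their part in the differences of Itgb4, Gja1, Gjb2 and Cldn7 was not tested.

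Promoters are shown for the 3 genes that were higher on all treated arrays, 16.7% of the 18 beside 18.6% of all probe sets. Of these, Gja1 was called, in FE8, and Gjb2 and Cldn7 were not. The drug lowers methylation at CG dinucleotides, and a part of this in their differences was not tested. The windows run from 250 bases before to 50 after the annotated start (RefSeq, GRCr8), at chr20:36302314-36302613 on the plus strand for Gja1, chr15:35381904-35382203 on the minus strand for Gjb2 and chr10:55188420-55188719 on the plus strand for Cldn7. They are written 5' to 3', and capitals mark each CG, a motif that reads the same on both strands.

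Gja1 promoter: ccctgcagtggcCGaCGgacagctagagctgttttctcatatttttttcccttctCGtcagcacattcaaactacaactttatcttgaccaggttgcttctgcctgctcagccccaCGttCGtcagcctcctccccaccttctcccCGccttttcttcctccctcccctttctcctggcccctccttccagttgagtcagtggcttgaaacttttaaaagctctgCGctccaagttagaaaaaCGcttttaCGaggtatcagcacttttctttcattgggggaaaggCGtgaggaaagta

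Gjb2 promoter: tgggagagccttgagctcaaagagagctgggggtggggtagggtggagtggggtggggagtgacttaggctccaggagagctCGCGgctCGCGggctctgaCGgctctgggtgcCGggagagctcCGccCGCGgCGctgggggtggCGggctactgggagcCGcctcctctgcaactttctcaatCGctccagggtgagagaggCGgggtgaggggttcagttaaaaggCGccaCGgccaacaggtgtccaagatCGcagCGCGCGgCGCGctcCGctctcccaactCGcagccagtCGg

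Cldn7 promoter: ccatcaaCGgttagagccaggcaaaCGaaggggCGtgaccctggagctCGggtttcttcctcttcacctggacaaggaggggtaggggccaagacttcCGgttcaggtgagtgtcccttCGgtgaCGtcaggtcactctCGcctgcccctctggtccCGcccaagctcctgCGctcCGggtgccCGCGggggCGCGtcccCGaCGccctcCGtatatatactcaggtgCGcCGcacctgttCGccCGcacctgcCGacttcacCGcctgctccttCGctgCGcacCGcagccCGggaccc

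The Gja1 window holds 10 CG dinucleotides, and 41.5% of the 33469 windows of all genes hold at least as many. The Gjb2 window holds 25 (16.6% of windows hold at least as many) and the Cldn7 window 28 (12.7%). At least 1 CG is found in 94.5% of all windows, and their median count is 7. Of the 18 genes 14 were matched to a window, with 2 to 35 CG. The unmatched genes were Cdh17, Itga7, Itgb4 and Ncam1. Itgb1, whose signal was lower on all treated arrays, has the window richest in CG among the 14, with 35, whereas Tjp1 has 2. Itgav has 27 and Itga8 has 18, and in both genes treated and untreated arrays overlapped. Methylation was not among the values analysed, so these counts describe sequence only.

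The wider adhesion pathway was read from gene lists. Of 35 ligands of integrins and other matrix proteins 17 were measured. In untreated FE8 against untreated 208F 8 were lower, 2 higher and 7 not called, beside 2.82% lower and 3.09% higher of all probe sets. The median was -1.35 beside 0.02 over all probe sets. Under the drug 7 were lower, 2 higher and 8 not called (median -0.77), beside 3.65% lower and 3.42% higher of all probe sets. The higher pair was the same in both comparisons, osteopontin Spp1 and Lama3, a laminin chain that belongs to the ligand of the Itgb4 receptor. Lama3 had signals of 688 and 649 in treated FE8 and 581 in untreated FE8, against 149 and 238 in treated 208F and 49 in untreated 208F. Its line differences were 2.51 ± 0.43 (adjusted p = 0.0049) and 1.53 ± 0.30 (adjusted p = 0.0089), and untreated 208F was its lowest array, as for Itgb4. With the drug Lama3 differed by 0.18 ± 0.37 in FE8 and 1.17 ± 0.37 in 208F, neither of them called (adjusted p = 0.836 and 0.108). Among the lower ligands, the largest differences without the drug were those of Col1a1 (-6.84 ± 0.48), Fbln5 (-4.17 ± 0.40) and Col3a1 (-3.49 ± 0.48). Ccn1, a matricellular integrin ligand, followed at -2.94 ± 0.35 without and -3.33 ± 0.24 with the drug.

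Of 33 integrin effectors at focal adhesions 13 were measured. The GTPase Rhob was lower in FE8, by -2.92 ± 0.38 (adjusted p = 0.000869) without and -2.43 ± 0.27 with the drug, and the adaptor paxillin (Pxn) was higher in treated FE8 by 0.93 ± 0.22 (adjusted p = 0.0296). With the drug, Rhob and caveolin Cav1 rose in FE8 by 1.59 ± 0.33 and 1.42 ± 0.38, and the actinin Actn4 fell in 208F, at -1.60 ± 0.35. The others were not called in those comparisons. Between untreated lines 1 of 13 was lower, beside 2.82% of all probe sets. Between treated lines 1 was lower and 1 higher, beside 3.65% and 3.42%. With the drug 2 were higher in FE8, beside 5.06%, and 1 was lower in 208F, beside 1.6%. The list median was -0.40 between untreated lines (0.02 over all probe sets) and 0.04 between treated lines (-0.00). With the drug it was 0.18 in FE8 (0.08 over all probe sets) and -0.11 in 208F (0.11). Of 33 junction partners of cadherins and tight junctions 6 were measured and 1 was called, beside 16.2% of all probe sets called in at least 1 comparison. This was plakoglobin (Jup), which rose with the drug in FE8 by 1.19 ± 0.32 (adjusted p = 0.0427).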

How the data were processed

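Expression was measured on 6 Affymetrix rat arrays, 1 per sample. Each deposited value is the intensity of a probe set, computed by the authors with MAS5 per the submitters' processing notes, which give no version or settings. The table holds 4847 probe sets, a subset chosen by a filter not given in the sources used here. Of these 29 controls were left out and 4818 were tested. Column means lay between 1258 and 1389.5, so no further scaling was applied, and the number of arrays limits the precision. Run settings were read for chip lot and session. Duplicates differed, with r = 0.969 in treated FE8 and 0.959 in treated 208F on the log2 scale.

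Probe sets were named from the platform annotation, updated by gene identifier through RefSeq (GRCr8, names only, 3942 matched). One gene was listed for 3956, several for 207 and none for 655.

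A model of 4 group means was fitted to log2(signal + 64) with limma 3.58.1 in R 4.3.3 (lmFit, eBayes with intensity trend, 2 residual and 9.02 prior degrees of freedom) and tested on simulated data. Lines were compared untreated and treated, the drug was compared within each line, and the drug effects were subtracted. All 18 genes could be named, and called genes are given with every array. Lists are described by counts and medians, with up to 4 genes named per direction. The members and lists were chosen with earlier results of these data known, and the counts of arrays that do not overlap were added after the values were seen. Alternatives were a pseudocount of 16 and a larger one, quantile normalization, a mean signal of at least 200, no intensity trend, the brightest probe set without a suffix _s, _f, _i or _r, each treated array left out, and the replicate number as a block.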

Additional observations from a re-analysis of the deposited data

Results flagged for a closer look

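For Itgb4 and Ncam1 the treated arrays lay on opposite sides of the untreated array in the 2 lines. The share of all probe sets that do so was not counted. For Itgb4 both treated FE8 arrays (631 and 630) lay below untreated FE8 (661), by less than the error of the fit, and both treated 208F arrays (182 and 321) above untreated 208F (24). The difference between drug effects, FE8 minus 208F, was -1.87 and did not pass limma's test after adjustment (adjusted p = 0.243). For Ncam1 both treated FE8 arrays (155 and 243) lay below untreated FE8 (272) and both treated 208F arrays (538 and 400) above untreated 208F (335). Its drug differences, -0.37 ± 0.38 in FE8 and 0.41 ± 0.38 in 208F, were about as large as their errors. The limma difference between drug effects was -0.78 (adjusted p = 0.955), so an opposite response is not shown.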

How the results depend on the processing

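Without the drug, Cdh17 and Itgb4 were called under each of 11 alternatives. No alternative left out an untreated array, so the single arrays on which these calls rest were not tested. Leaving out a treated array kept the differences at 3.33 and 3.04 and changed their errors alone. Between treated lines the 4 calls became 3 with a pseudocount of 16, 5 with the larger one and 5 after quantile normalization, and 1 to 6 when 1 treated array was left out. The lowest count came without FE8 replicate 2 and the highest without 208F replicate 2, and 2 remained without FE8 replicate 1. The single 208F drug call was 0 with the larger pseudocount and 0 after quantile normalization, and 0 to 2 with 1 array left out. The single FE8 drug call was 0 after quantile normalization, 0 among probe sets without a suffix, which leaves out the Gja1 probe set by construction, and 0 to 1 with 1 array left out. For the difference between drug effects the count was 0 to 1 with 1 array left out. Apart from the suffix setting, the cause was not tested. No called difference changed sign.

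Counts over all probe sets ran, with 1 array left out, from 109 to 541 for the untreated lines (285 with all arrays), from 96 to 530 for the treated lines (341), from 75 to 663 for the drug in 208F (250), from 76 to 783 in FE8 (393) and from 0 to 206 for the difference between drug effects (3). After quantile normalization 165 were called for the drug in 208F, 258 in FE8 and 0 for the difference between drug effects, where the other settings gave 0 to 10. With the replicate number as a block (replicate block), 3 genes were called between treated lines, Itgb4 being the one lost, and the other counts of genes were as without it. Same-numbered treated arrays deviated together with r = 0.319 across probe sets, over 2 pairs that share no more than a number in the labels.

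The untreated groups had 1 array each, and 8 of the 18 genes had a mean signal under 200, where small differences were not detectable.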

Other observations

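Of 39 other surface adhesion molecules 19 were measured. The tetraspanin Cd9, which associates with integrins, had signals of 1018 and 1584 in treated FE8 against 18 in untreated FE8, and 221 and 253 in treated 208F against 12 in untreated 208F. It rose by 4.03 ± 0.39 in FE8 (adjusted p = 0.000151) and by 1.98 ± 0.39 in 208F (adjusted p = 0.0132). In FE8 the heparan sulfate proteoglycans Sdc1 and Sdc4 rose too, by 1.68 ± 0.28 and 1.67 ± 0.32, and embigin (Emb) by 1.44 ± 0.26, so 4 of 19 rose in FE8, beside 5.06% of all probe sets, and 1 in 208F, beside 3.59%. The list's medians were 0.34 in FE8 and 0.28 in 208F, against 0.08 and 0.11 over all probe sets. Sdc1 and Sdc4 had been lower in untreated FE8 than in untreated 208F, at -1.36 ± 0.33 and -1.45 ± 0.37, and these values share the untreated FE8 array with the rise. Between untreated lines these 2 of 19 were lower, beside 2.82% of all probe sets. Alcam (1.56 ± 0.41) and Cd82 (1.15 ± 0.30) were higher, beside 3.09%. Between treated lines 4 were higher and 0 lower, beside 3.42% and 3.65% of all probe sets. The 4 were Cd9 (2.15 ± 0.32), Cd44, Cd82 (0.85 ± 0.21) and Emb (0.85 ± 0.21). The hyaluronan receptor Cd44 was higher in treated FE8 by 1.66 ± 0.24 (adjusted p = 0.00111), with signals of 2512 and 3454 in treated FE8 against 821 and 959 in treated 208F.

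Of 11 regulators of E-cadherin and adhesion 5 were measured. Id2, an inhibitor of helix-loop-helix factors, rose with the drug by 2.08 ± 0.35 in FE8 and 2.99 ± 0.35 in 208F. Klf4, an epithelial transcription factor, had signals of 1032 and 1346 in treated FE8 and 900 in untreated FE8, against 443 and 1439 in treated 208F and 45 in untreated 208F. It was higher in untreated FE8 by 3.14 ± 0.59 and rose with the drug in 208F (adjusted p = 0.00649), both resting on the untreated 208F array, as for Itgb4. Zeb1, Twist2 and Tcf3 were called in none of the 5 comparisons. Between untreated lines 1 of the 5 genes was thus higher, beside 3.09% of all probe sets. With the drug 1 was higher in FE8, beside 5.06%, and 2 in 208F, beside 3.59%.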
